A study of Mus musculus with 2 samples.

Results

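Nsl1 is a subunit of the NSL complex, and Msl1 is a subunit of the MSL complex. Both complexes hold the histone acetyltransferase Mof, which acetylates lysine residues of histone H4, and Nsl1 is best known at the promoters of housekeeping genes. The regions described here are the Nsl1 sites that lay far from any transcription start site (TSS) in mouse embryonic stem cells (mESCs). They were chosen by their Nsl1 and Msl1 read counts: 692 of 2472334 non-overlapping 1 kb tiles of the autosomes, and of 2047550 tiles with all bases over 5 kb from every annotated TSS (far tiles). A far tile was kept when it held at least 30 Nsl1 reads, when Nsl1 reached at least 3 times its own level per kb between 5 and 50 kb on both sides (the local level), and when Msl1 stayed under 2 times its own local level. The rule kept 0.0338% of the far tiles.

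The cells were wild-type (wt) mESCs labelled E14, with the genetic background 129P2/OlaHsd at passage 26. They were grown on feeder cells and, for feeder-free work, kept for a passage on gelatine alone; the labels name no treatment. ChIP-seq was carried out with rabbit antibodies against Msl1 (3208) or Nsl1 (3130) on chromatin sheared to fragments of 200 to 500 bp. There was 1 library for each antibody, so no difference between the libraries has a replicate check, and no input library was used here. After repeated reads were removed, the Nsl1 library had 24235463 autosomal reads and the Msl1 library had 18954995. All intervals below are 95% intervals. Those of read counts and ratios are exact Poisson intervals of the reads counted, with the local level taken as known. They cover counting error only, and reads without molecular identifiers are not independent molecules. Intervals for medians come from the order of the values across tiles and reflect the spread between tiles. Intervals for shares of tiles treat tiles as separate counts, although tiles are not replicates of the cells.

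Distal sites of chromatin regulators can be enhancers, insulators, promoters that the annotation lacks, or places where sequencing reads pile up for other reasons. E boxes are short DNA sites bound by basic helix-loop-helix proteins such as the Usf and Tfe families. Ets factors bind sites with a GGAA core, CTCF binds insulators and loop anchors, and the A box and B box form the internal promoter that RNA polymerase III uses at tRNA genes.

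Sequences are shown at the summits, the points with most Nsl1 reads within 50 bases on either side, for 3 kinds of region. All coordinates are from mm9, and all sequences are of the plus strand. The first kind had short E box words. The next 4 sequences, with Atxn1 and Pfkfb3 further on, are from the highest tiles with these words whose sequence is printed, and capitals mark CACGTGA or CATGTGA on either strand, and AGGAAGTG in the site of Ano6.
Mypn, chr10:62623557-62623657: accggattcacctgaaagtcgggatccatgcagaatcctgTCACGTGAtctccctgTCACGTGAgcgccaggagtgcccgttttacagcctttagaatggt
Ano6, chr15:95680279-95680379: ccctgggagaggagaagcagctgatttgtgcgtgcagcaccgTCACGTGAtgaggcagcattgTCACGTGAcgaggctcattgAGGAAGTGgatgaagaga
Brd3, chr2:27357005-27357105: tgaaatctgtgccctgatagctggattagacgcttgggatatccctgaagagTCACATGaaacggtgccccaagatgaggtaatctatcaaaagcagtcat
Lhcgr, chr17:89212498-89212598: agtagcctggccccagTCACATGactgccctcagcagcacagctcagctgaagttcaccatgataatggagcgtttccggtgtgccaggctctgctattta
The sites of Mypn and Ano6 each held a pair of TCACGTGA palindromes close to the summit. The second kind had an Ets word, and capitals mark CCGGAAG or AGGAAGTG on either strand in the next 4 sequences.
Wrn, chr8:34441132-34441232: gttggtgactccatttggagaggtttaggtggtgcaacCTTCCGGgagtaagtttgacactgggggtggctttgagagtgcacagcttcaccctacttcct
Pck1, chr2:172984892-172984992: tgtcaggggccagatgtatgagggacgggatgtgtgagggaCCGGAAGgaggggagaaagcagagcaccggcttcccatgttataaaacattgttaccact
Srgap1, chr10:121416392-121416492: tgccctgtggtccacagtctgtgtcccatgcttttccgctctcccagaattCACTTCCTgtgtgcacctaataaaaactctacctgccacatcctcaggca
SNORA17, chr8:89498159-89498259: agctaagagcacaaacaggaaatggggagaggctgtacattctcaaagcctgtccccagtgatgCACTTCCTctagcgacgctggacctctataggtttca
The next 4 sequences are from the tiles ranked 3 to 6 by Nsl1 ratio, and none is shown for ranks 1 and 2. They hold none of the words marked above, and those in Dock2, near Tspan5 and near AC191865.1, the third kind, repeat a short unit along their length.
Dock2, chr11:34495215-34495415: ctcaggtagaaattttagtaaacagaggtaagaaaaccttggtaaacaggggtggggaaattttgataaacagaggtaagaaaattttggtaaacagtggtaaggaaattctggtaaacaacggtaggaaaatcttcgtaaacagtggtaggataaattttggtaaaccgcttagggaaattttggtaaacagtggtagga
Tspan5, chr3:138389853-138390053: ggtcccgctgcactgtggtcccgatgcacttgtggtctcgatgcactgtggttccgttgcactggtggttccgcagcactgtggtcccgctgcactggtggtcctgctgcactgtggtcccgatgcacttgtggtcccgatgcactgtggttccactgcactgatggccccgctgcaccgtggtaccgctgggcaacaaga
Rhbdd1, chr1:82429370-82429570: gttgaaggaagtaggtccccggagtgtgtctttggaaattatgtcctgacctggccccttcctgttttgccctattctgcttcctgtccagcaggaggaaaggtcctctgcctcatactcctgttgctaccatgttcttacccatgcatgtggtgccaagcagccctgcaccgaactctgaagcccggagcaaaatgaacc
AC191865.1, chr16:3236752-3236952: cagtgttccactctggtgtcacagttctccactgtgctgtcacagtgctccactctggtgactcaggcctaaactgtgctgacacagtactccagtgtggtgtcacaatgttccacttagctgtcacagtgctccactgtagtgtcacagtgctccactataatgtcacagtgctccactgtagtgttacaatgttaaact
Both of the next tiles have the highest ratios among those with a CpG island stretch that are not yet shown, and capitals again mark E box words.
Pfkfb3, chr2:11457072-11457272: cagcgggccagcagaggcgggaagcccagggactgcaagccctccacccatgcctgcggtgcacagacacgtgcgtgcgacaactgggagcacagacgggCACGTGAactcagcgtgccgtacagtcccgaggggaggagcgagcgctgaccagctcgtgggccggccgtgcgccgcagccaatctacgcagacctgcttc
Atxn1, chr13:45865145-45865345: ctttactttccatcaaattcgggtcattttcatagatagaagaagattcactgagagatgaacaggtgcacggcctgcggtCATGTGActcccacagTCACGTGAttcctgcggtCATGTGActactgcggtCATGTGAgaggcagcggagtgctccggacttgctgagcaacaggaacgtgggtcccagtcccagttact
The following sites were the highest with the CTCF consensus in the tile. Capitals mark the consensus at the site near Foxk1, and at the site in Gm10787 it lay outside the window shown, 297 bases from the summit.
Gm10787, chr10:76484510-76484710: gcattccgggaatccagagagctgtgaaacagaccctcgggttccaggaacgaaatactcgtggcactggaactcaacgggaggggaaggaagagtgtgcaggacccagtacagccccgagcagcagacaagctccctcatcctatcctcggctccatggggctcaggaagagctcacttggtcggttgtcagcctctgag
Foxk1, chr5:142843543-142843743: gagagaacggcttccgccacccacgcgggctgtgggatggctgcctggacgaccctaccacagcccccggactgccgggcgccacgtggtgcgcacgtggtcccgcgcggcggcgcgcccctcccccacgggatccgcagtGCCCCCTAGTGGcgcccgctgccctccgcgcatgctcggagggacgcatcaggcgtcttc
In the last sequence, from a tile with an A box followed by a B box on the same strand, capitals mark the boxes.
Gm11708, chr11:106874131-106874331: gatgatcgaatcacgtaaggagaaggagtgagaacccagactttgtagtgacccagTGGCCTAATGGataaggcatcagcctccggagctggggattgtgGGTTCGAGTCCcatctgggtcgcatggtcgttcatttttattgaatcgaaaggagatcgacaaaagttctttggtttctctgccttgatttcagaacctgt

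Nsl1 ratios at the 692 tiles ran from 3 to 14.4 times the local level, with a median of 3.55 (interval 3.49 to 3.61), against a median of 0.967 over all far tiles without an N base. Most tiles lay just above the limit. The ratio was between 3 and 4 at 468 tiles, between 4 and 5 at 131, between 5 and 8 at 72, and 8 or more at 21. Read counts were small, with a median of 44 Nsl1 reads and a range of 30 to 190, and at 206 tiles (29.8%) the whole counting interval of the ratio was at or above 3. Msl1 had a median of 11 reads and a median ratio of 1.26, against 0.929 over all far tiles, and at 259 tiles (37.4%) its whole interval was under 2. The Msl1 ratio was under 0.5 at 30 tiles, between 0.5 and 1 at 171, between 1 and 1.5 at 273 and between 1.5 and 2 at 218. These values chose the tiles and are a description.

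The limits cut through a continuous range. The 3 tiles just inside had Nsl1 ratios of 3.003, 3.002 and 3 from 36, 44 and 41 reads, and the first 3 outside had 2.998, 2.997 and 2.995 from 42, 34 and 43 reads. On the Msl1 side, the last tiles inside had Msl1 ratios of 1.991, 1.995 and 1.997, and the first outside had 2, 2.003 and 2.006. Without the limit on Msl1, 1110 far tiles (0.0542%) reached the Nsl1 limits, so 418 of them had Msl1 at 2 or more times its local level (tiles with both). With the 2 libraries exchanged, the rule kept 241 tiles (0.0118%, far Msl1 tiles), and their summits were set with Msl1 reads. Among 53450 tiles with an annotated TSS inside, 1080 (2.02%) met the same limits on reads, and they are called TSS tiles here.

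**Figure D1:**
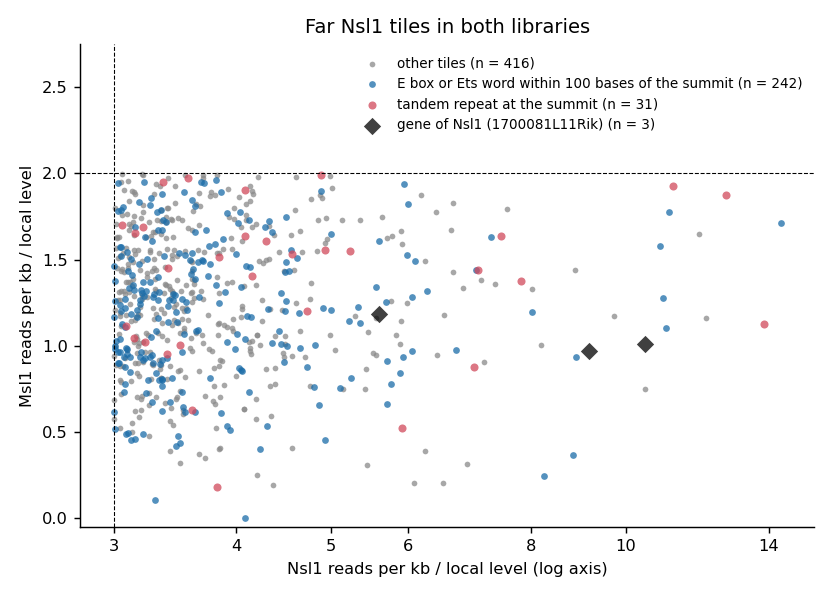
Each point is 1 of the 692 far Nsl1 tiles. The x axis gives Nsl1 reads per kb over the local level on a log axis, the y axis gives the same for Msl1, and dashed lines mark the limits of 3 and 2. Colours mark tiles with an E box or Ets word, with a tandem repeat, or in 1700081L11Rik, and a tile with several of these is drawn once. Of the points 468 lie between 3 and 4 on the x axis, and the 31 tandem repeat tiles lie across the whole range.

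The 12 tiles with the highest ratios were of several shapes. The share of a tile's Nsl1 reads within 100 bases of the summit tells a sharp site from a wide block. The strand gap is the median 5' end of minus-strand reads less that of plus-strand reads. Reads were placed in tiles after their shift (67 bases for Nsl1). Evenly spread reads therefore also give a positive gap, equal to the shifts of both strands added together. A positive gap alone thus does not mark a site. F930017D23Rik held a sharp site in an intron, with 128 Nsl1 reads (10.5 times, interval 8.73 to 12.4), 8 Msl1 reads (0.752 times), 88.3% of the reads at the summit and a strand gap of 140 bases. The site in an intron of Wrn, which encodes a RecQ helicase, had 94 Nsl1 reads (10.8 times, 8.76 to 13.3), 9 Msl1 reads (1.58 times) and 90.4% of the reads at the summit. The site at -33444 bases from the TSS of Pfkfb3, a gene of glycolytic control, had 142 Nsl1 reads (11.1 times, 9.32 to 13.0), 21 Msl1 reads (1.78 times) and 76.1% at the summit. These 3 sites were narrow. The interval of the Msl1 ratio held 1 at F930017D23Rik (0.324 to 1.48) and Wrn (0.721 to 2.99) and lay above it at Pfkfb3 (1.10 to 2.71).

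Atxn1, which encodes a nuclear protein, had its site in an intron 195081 bases after the nearest TSS. It had 133 Nsl1 reads (11 times, 9.21 to 13.0) and 10 Msl1 reads (1.10 times, 0.528 to 2.02). The site before Tspan5, a tetraspanin gene, had 148 Nsl1 reads (12.1 times, 10.2 to 14.2) and 12 Msl1 reads (1.16 times, 0.599 to 2.03). Its summit sequence, shown above, repeats a short unit along its length. Rhbdd1, a rhomboid-like protease gene, had 99 Nsl1 reads (11.9 times, 9.66 to 14.5) and 11 Msl1 reads (1.65 times, 0.822 to 2.95) in an intron. At all 3, over 50% of the Nsl1 reads were at the summit.

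The leading tiles that follow had a wide block of reads, many repeated reads, a tandem repeat or a flank partly without reads. In an intron of Brd3, which encodes a bromodomain protein, 181 Nsl1 reads (10.9 times, 9.39 to 12.6) lay in a wide block with 29.3% at the summit and a strand gap of -33.5 bases. The highest ratio of all, 14.4 times (11.8 to 17.4) near AC147251.1 on chromosome 18, came from 107 reads left after 557 repeats of the same positions were removed. Zbtb7c, a zinc finger gene, had the second highest, with 160 Nsl1 reads (13.9 times, 11.8 to 16.2) and 10 Msl1 reads (1.13 times), and its summit lay in a tandem repeat. In Dock2, which encodes an exchange factor of leukocytes, 108 Nsl1 reads (12.7 times, 10.4 to 15.3) and 11 Msl1 reads (1.87 times, 0.934 to 3.35) stood beside a stretch without reads. There, 45 of the 90 kb that set the local level held no read of either library.

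Tandem repeats were counted from the sequence as summits where at least 60% of the bases in 401 equalled the base a fixed 5 to 100 bases further on. They were found at 31 far Nsl1 tiles (4.48%, 3.06 to 6.30), at 0.574% of the middles of every 100th far tile, at 0.0926% of TSS tiles, at 0.830% of far Msl1 tiles and at 5.02% of tiles with both. Of the 12 tiles with the highest ratios 3 were among them, and of the 93 tiles with a ratio of 5 or more 9 were (9.68%), against 3.67% of the other 599. The longest run of touching tiles, 7 tiles near AC191865.1 on chromosome 16, was made up of such repeats at every summit, with 112 Nsl1 reads and 14 Msl1 reads (1.93 times) in its highest tile and no reads in 45 of the 90 flanking kb. Over all members, 51 (7.37%) had more than 10 of 90 flanking kb without a read of either library, and 17 (2.46%) lay in the first 3500 kb of a chromosome, which holds 0.378% of far tiles. Words of 32 letters found more than once in the genome made up over 10% of 122 members (17.6%) and of 34.7% of every 2000th far tile. The same held for 43.3% of tiles with both, 13.9% of TSS tiles and 9.13% of far Msl1 tiles. The part of copy number and mapping in the Nsl1 ratios of these tiles was not tested.

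The gene of Nsl1 itself, named 1700081L11Rik in the annotation and also known as Kansl1, held 3 members on chromosome 11. They had 190 (10.5 times), 136 (9.18 times) and 83 (5.60 times) Nsl1 reads, with 18 (1.01 times), 18 (0.968 times) and 22 (1.18 times) Msl1 reads, and the first of them had the most Nsl1 reads of all members. The antibody was raised against a C-terminal fragment of Nsl1 expressed from a cloned cDNA, and the 824 bases of exons 10 to 15 that its primers span held 213 Nsl1 reads, or 258 per kb (225 to 296), and 18 Msl1 reads, or 21.8 per kb. All introns of the gene together had 14.7 Nsl1 reads per kb (14 to 15.3) and 18.1 Msl1 reads per kb. The coding part of exon 3, outside the fragment, had 207 Nsl1 reads, or 161 per kb (139 to 184), against 22.5 per kb for Msl1, while the coding parts of exons 4 to 9 between them had 21.1 Nsl1 reads per kb (12.7 to 33.0). Nsl1 reads per kb were thus high in exon 3 and in the exons of the fragment, and Msl1 reads were not. Whether DNA of a cloned cDNA added to these reads was not tested. Without the 3 tiles, 689 members remained, with a median Nsl1 ratio of 3.54.

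**Figure D2:**
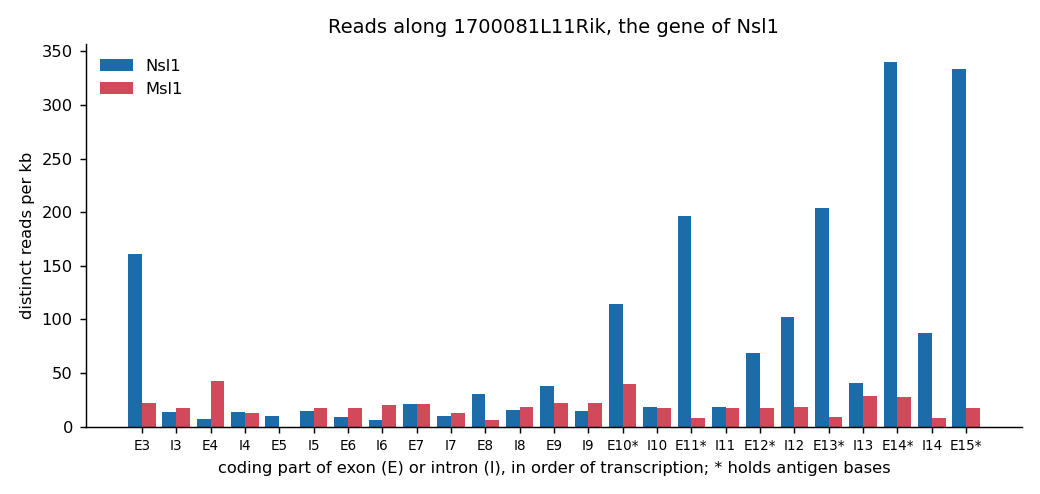
Bars give distinct Nsl1 and Msl1 reads per kb in the coding part of each exon (E) and in each intron (I) of 1700081L11Rik, from exon 3 on, in the order of transcription; exons with a star hold bases of the antibody's antigen. Nsl1 bars rise to 340 per kb at exon 14 and stand at 161 per kb at exon 3, whereas exons 4 to 8 are at 30.1 or less and introns 12 and 14, which are short, reach 102 and 87.1.

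As a group, the members had a share of reads at the summit close to that of TSS tiles. The median share of Nsl1 reads within 100 bases of the summit was 42.9% (41.5 to 45.2), against 43.3% (42.5 to 44.2) at TSS tiles, 36.7% (35.0 to 38.5) at tiles with both and 32.4% for Msl1 reads at far Msl1 tiles. The median strand gap was 137 bases (132 to 143) at members, 140 (137 to 144) at TSS tiles and 117 (102 to 128) at tiles with both, and for Msl1 reads 229 (212 to 242) at far Msl1 tiles. The gap was from 80 to 200 bases at 400 members (57.8%) and negative at 44 (6.36%). For each 100 distinct Nsl1 reads, 11.4 repeats had been removed at members, 9.67 at TSS tiles and 242 at tiles with both. In the share of reads at the summit and in repeats, members were nearer to TSS tiles than to the tiles with both. The summit was set with the reads that chose the tiles. The Msl1 limit also sorts regions with piled-up reads in both libraries into the tiles with both, so this difference is a description.

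Around the summits, the mean Nsl1 level was 14.6 times the local level in the 50 bases before the summit and 1.85 times it 500 to 550 bases upstream. The summit is the point with most Nsl1 reads within 50 bases, so this choice raises the level in the bins that touch it. From 50 to 100 bases away, Nsl1 was at 5.33 times before and 5.23 times after the summit. Msl1 was at 1.41 times (SE over tiles 0.075) before the summit, 1.53 times (SE 0.084) 50 to 100 bases after it, and 1.25 times (SE 0.070) 500 to 550 bases upstream. At TSS tiles, Nsl1 rose in the same way to 16.7 times, whereas Msl1 was at 1.44 times at the summit and at 2.21 times in the bin 500 to 550 bases upstream. At TSS tiles Msl1 was thus lower at the Nsl1 summit than beside it, a dip that the members did not show. The Msl1 limit covers the tile, which always holds the summit, whereas bins further away can lie outside it. The dip is therefore a description, and the part of the limit in it was not tested.

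**Figure D3:**
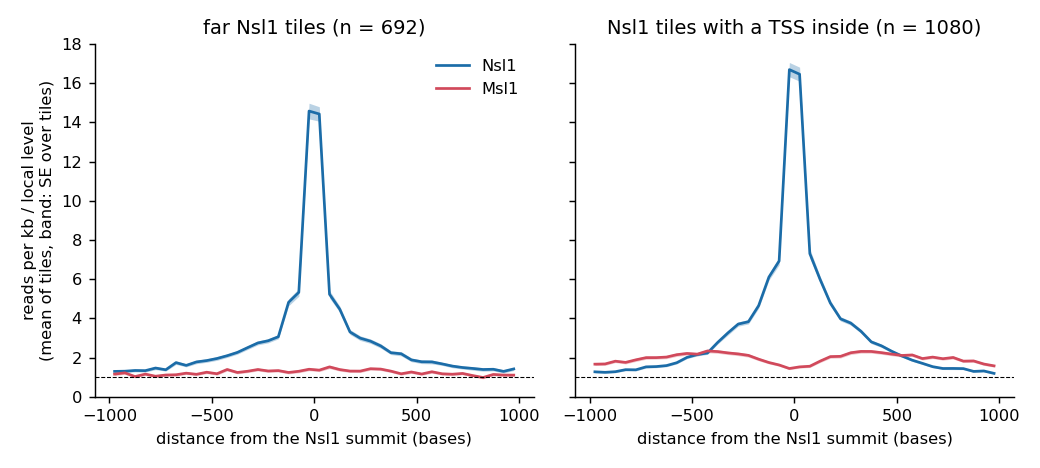
Mean reads per kb over the local level (y axis) by distance from the Nsl1 summit in bases (x axis), for Nsl1 (blue) and Msl1 (red) in bins of 50 bases, with bands of the SE over tiles; the dashed line is the local level. Nsl1 peaks at 14.6 times at the 692 members and 16.7 times at the 1080 TSS tiles. The choice of the summit by Nsl1 reads raises both heights. Msl1 at the TSS tiles is at 1.44 times at the summit between shoulders of up to 2.34 times. The Msl1 limit of the rule covers the tile with the summit but not bins outside that tile.

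Words of 8 letters were then counted within 50 bases of each summit and in windows of the same length centred 400 bases to either side. The words chosen for the counts below were picked from this scan after its result was seen, so their shares are a description. TCACATGA was present at 47 summits against a mean of 2.5 in the side windows, CATGTGAC at 48 against 4.5, CACGTGAC at 41 against 0.5 and TCACGTGA at 25 against 0.5. Of the Ets type, ACAGGAAG was present at 49 against 9, AGGAAGTG at 46 against 7.5 and ACTTCCGG at 32 against 1.5. All 12 leading words held an E box (CACGTG or CATGTG) or the GGAA core of Ets sites on one of the strands.

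Within 100 bases of the summit, 126 members (18.2%, 15.4 to 21.3) held CACGTGA or CATGTGA on either strand. The side windows held them at 5.64% and 4.05% of members, and the 100 bases on either side of the middle of every 10th far tile (far middles, 196864 windows) at 4.52%. CACGTGA alone was at 68 summits (9.83%) against 0.811% of far middles, and CATGTGA at 78 (11.3%) against 3.75%. At TSS tiles, CACGTGA was as frequent, at 9.54%, whereas CATGTGA was at 2.59% (1.73 to 3.73), against 9.01 to 13.9 for the interval of the members. Pairs or larger groups of such words at least 8 bases apart were at 47 members (6.79%, 5.03 to 8.93), at 2.69% of TSS tiles (1.81 to 3.83), at 1.44% of tiles with both and at 0.145% of far middles. CACGTGA contains the listed E box CACGTG, which was at 12.9% of member summits and 1.93% of far middles.

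The Ets words CCGGAAG and AGGAAGTG were at 137 summits (19.8%, 16.9 to 23.0), against 3.32% and 3.76% in the side windows and 2.17% of far middles. CCGGAAG, which holds a CpG, was at 81 members (11.7%, 9.41 to 14.3) and at 28.4% of TSS tiles. AGGAAGTG, without one, was at 63 members (9.10%, 7.07 to 11.5) and at 3.98% of TSS tiles. Compared with the members, TSS tiles thus had more of the CpG form of the Ets word and less of CATGTGA and AGGAAGTG, the forms without CpG. Since the words were picked at the summits of the members, the choice favours them over the TSS tiles, and these differences are a description. The listed Ets consensus CCGGAAGTG contains CCGGAAG. At far Msl1 tiles the E box words were at 2.49% and the Ets words at 4.98% of the summits, which are those of Msl1 reads.

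One or more of these 4 words was at 247 members (35.7%, 32.1 to 39.4), against 6.62% of far middles, 38.9% of TSS tiles, 20.8% of tiles with both and 7.47% of far Msl1 tiles. The share was 41.2% at the 250 members with at least 50% of the reads at the summit and 21.0% at those with under 30%. It was 37.0% with and 34.9% without a CpG island stretch, 33.8% outside genes and 36.8% in introns, and 37.2% at members over 50 kb from the nearest TSS. By level, it was 36.6% at ratios of 5 or more and 35.6% at lower ones. Shares in the different places had overlapping intervals, and those of sharp and wide sites were 35.0 to 47.6 and 13.6 to 30. Mean Nsl1 profiles at summits with an E box word, an Ets word and none of the words were 15.9 (SE 1.19), 14.6 (SE 0.800) and 14.2 (SE 0.465) times the local level before the summit.

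**Figure D4:**
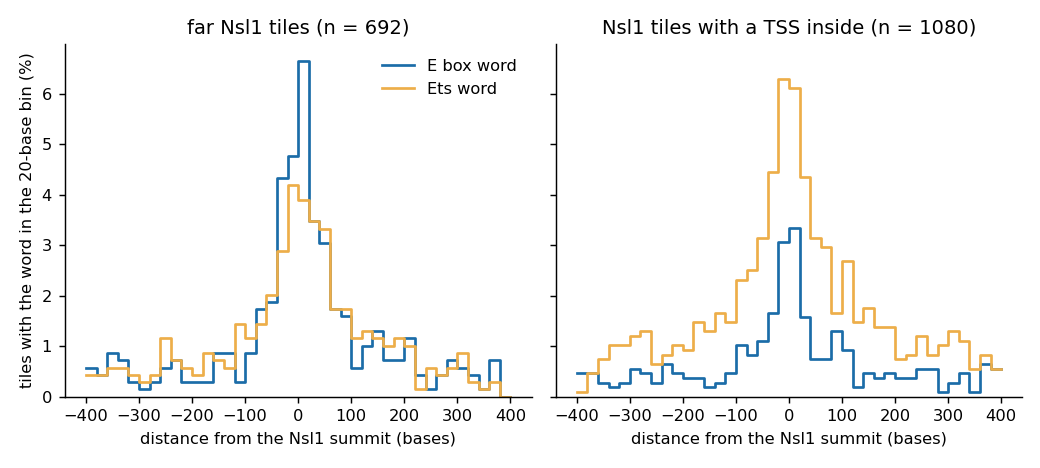
The y axis gives the share of tiles with an E box word (CACGTGA or CATGTGA, blue) or an Ets word (CCGGAAG or AGGAAGTG, yellow) in each 20-base bin, and the x axis gives the distance from the Nsl1 summit in bases, for the 692 members (left) and the 1080 TSS tiles (right). E box words reach 6.65% in the bin after the summit at members and 3.33% at TSS tiles, and Ets words reach 4.19% and 6.30%.

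The 20 motifs listed for this work were searched on both strands of each whole tile and of all 1968640 far tiles without an N base. Higher shares at the members were found for the Ets consensus CCGGAAGTG (27 tiles, 3.90%, against 0.161%), for Nrf1 CGCATGCG (18, 2.60%, against 0.160%), for CTCF (24, 3.47%, 2.23 to 5.12, against 0.441%, and 2.23%, 0.729 to 5.13, of the tiles with Nsl1 at 4 or more times), for the CRE TGACGTCA (20, 2.89%, against 0.533%), for E2F TTCCCGCC (21, 3.03%, against 0.646%), for the GC box GGGGCGGGG (37, 5.35%, against 1.33%) and for the E box CACGTG (155, 22.4%, against 9.20%). Differences were smaller for Znf143 CCCAGNATG (54, 7.80%, against 4.25%), NF-Y CCAATCAG (45, 6.50%, against 3.55%), and Klf CCACACCC (55, 7.95%, against 5.60%). The A box and B box pair was in 7 members (1.01%, 0.408 to 2.07), against 0.271%, and the difference was not stable: the interval held 0.271% with tiles moved by 500 bases (0.237 to 1.69), over 10 kb from any TSS (0.110 to 1.55), with 40 or more Nsl1 reads (0.241 to 2.24), with Nsl1 at 4 or more times (0.0113 to 2.46) and with Msl1 under 1.5 times (0.131 to 1.84). Kaiso CTCGCGAG (1 tile, 0.145%, against 0.0237%), the A box alone (416, 60.1%, against 58.8%), the B box (11, 1.59%, against 1.10%), YY1 AAGATGGCG (7, 1.01%, against 0.919%), Esrrb TCAAGGTCA (15, 2.17%, against 2.07%), the X box GTTGCCATG (9, 1.30%, against 1.03%) and TEAD GGAATGTG (28, 4.05%, against 4.13%) had shares whose intervals held that of far tiles. AP-1 TGANTCAT (72, 10.4%, against 13.6%) and the octamer ATGCAAAT (36, 5.20%, against 8.83%), the site of Oct factors, were less frequent. The REST consensus was in no member, which allows a share of up to 0.532%, against 0.0112% of far tiles.

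These shares were set beside base composition, which also differed. The consensus of CTCF was within 100 bases of the summit at 14 members (2.02%, 1.11 to 3.37), 0.0823% of far middles, 0.463% of TSS tiles, 0.415% of far Msl1 tiles and 0 of 418 tiles with both, which allows up to 0.879%. The GC box, in contrast, was at 0.43% of member summits (0.0895 to 1.26), an interval that held the 0.280% of far middles. It was in 1.16% and 1.73% of the side windows and at 6.67% of the summits of TSS tiles. The 7 tiles with a box pair had Nsl1 ratios from 3.22 to 4.16, and the tile near Hist1h2bl, a histone gene of chromosome 13, had 39 Nsl1 reads (3.56 times, 2.53 to 4.86) and 12 Msl1 reads (1.22 times). A match of letters does not show that a factor was bound.

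GC content and the share with a CpG island stretch lay between those of TSS tiles and those of all far tiles, and below those of far Msl1 tiles. The median GC content was 48.8% (48.4 to 49.1) at the members, 41.2% over all far tiles, 53.1% at TSS tiles, 47.0% at tiles with both and 50.9% at far Msl1 tiles. A CpG island stretch, meaning 200 bases with at least 50% GC and an observed CpG count of at least 0.6 times that expected, was in 262 members (37.9%, 34.2 to 41.6), 5.16% of far tiles, 93.8% of TSS tiles, 54.8% of far Msl1 tiles and 32.8% of tiles with both (28.3 to 37.5, which overlaps the interval of the members). Seen from the other side, 0.257% of the far tiles with a stretch passed the rule and 0.0229% of those without one. So most members, 430, had no CpG island, and the part of GC content in the read counts was not tested.

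The members lay nearer to TSSs than far tiles in general did, and their middles were more often in exons, both coding and other. The middle base was outside annotated genes at 408 (59.0%, 55.2 to 62.7), in an intron at 242 (35.0%), in a coding exon at 22 (3.18%, 2 to 4.77) and in another exon at 20 (2.89%, 1.77 to 4.43). Over all far tiles the shares were 63.0%, 35.2%, 0.799% and 1.02%, so the shares outside genes and in introns were close to those of far tiles. The median distance to the nearest TSS was 21052 bases (19669 to 23411), against 43071. Members had their middle within 20 kb of a TSS more often, with 121 (17.5%) from 5 to 10 kb and 205 (29.6%) from 10 to 20 kb, against 11.7% and 17.2% of far tiles, and 49 (7.08%) were over 100 kb away, against 27.8%. By chromosome, members were rarest on chromosome 14, with 19 of 103060 far tiles, and most frequent on chromosome 17, with 44 of 74372. The rule asks for 30 reads as well as 3 times the local level, so tiles with a low local level had to reach a higher ratio. The median local level was 12.3 Nsl1 reads per kb at members, beside a median of 9 Nsl1 reads in all far tiles. The part of this in the distances and the counts by chromosome was not tested. Of the members, 652 stood alone, 13 runs had 2 touching tiles and 3 runs were longer.

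**Figure D5:**
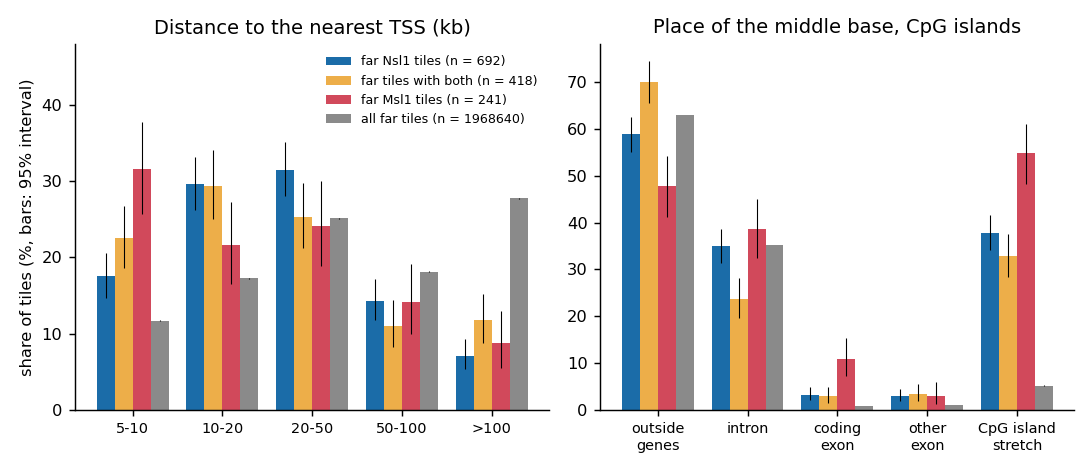
Shares of tiles in percent (y axes, with 95% intervals) for far Nsl1 tiles, far tiles with both, far Msl1 tiles and all far tiles. The left panel is by distance to the nearest TSS in kb. The right panel is by the annotation at the middle base and the presence of a CpG island stretch. At the members 7.08% are over 100 kb from a TSS against 27.8% of all far tiles, and 37.9% hold a CpG island stretch against 5.16%.

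The nearest TSS had Nsl1 at 3 or more times its local level for 62 members (8.96%, 6.94 to 11.3) and for 8.34% of far tiles, a share inside the interval of the members. This depended on the limits, since the share was 12.5% with Nsl1 at 4 or more times, with an interval (8.47 to 17.6) just above 8.34%. With the local level taken from 10 to 100 kb the share at members was 11.3% (9.07 to 13.9), and the share of far tiles under that level was not computed. For Msl1 at that TSS the shares were 113 (16.3%, 13.7 to 19.3) and 14.5%. At tiles with both, the share with Nsl1 was 11.7% (8.80 to 15.2), an interval that overlaps that of the members.

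Part of the members held a RefSeq gene start, over 5 kb from every TSS of the annotation used by the rule. Whether that annotation lists the gene with another start was not checked. RefSeq gene starts were placed on mm9 by a unique match of their first 32 transcribed bases, which gave 20777 of 32851 starts. Such a start was inside 25 members (3.61%, 2.35 to 5.29), 0.241% of far tiles, 7.42% of tiles with both and 61.1% of TSS tiles. The starts in members were 21 of lncRNAs and 5 of protein-coding genes. Examples were 4930425O10Rik at the site near Tspan5, Chaserr, a lncRNA gene next to the chromatin remodeller gene Chd2, with 39 Nsl1 reads (3.11 times, 2.21 to 4.25) and 27 Msl1 reads (1.44 times), and Zfp850, with 54 Nsl1 reads (4.59 times, 3.45 to 5.99) and 20 Msl1 reads (1.79 times). A CpG island stretch was in 13 of the 25 and in 249 of the other 667 members (37.3%).

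The highest tiles in exons, after those of 1700081L11Rik, were near Pck1, in Gm10787 and in Sema5b. The tile near Pck1, which encodes an enzyme of gluconeogenesis, had 96 Nsl1 reads (7.28 times, 5.90 to 8.89) and 15 Msl1 reads (1.63 times), with 85.4% of the Nsl1 reads at the summit. In Gm10787, 100 Nsl1 reads (6.82 times, 5.55 to 8.29) and 19 Msl1 reads (1.33 times) lay at an exon outside annotated coding sequence. Sema5b, a semaphorin gene, had 83 Nsl1 reads (6.05 times, 4.82 to 7.5) and 11 Msl1 reads (0.971 times) in a coding exon. All 3 were narrow, with 57.8% to 85.4% of the reads at the summit.

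Members were also counted in or nearest to genes of the listed pathways. A member was inside or nearest to the TSS of 674 of 21281 autosomal protein-coding genes (3.17%). Among 25 pluripotency factors the count was 2, Tbx3 and Zfp42, and the developmental regulators with a member included Six3, Tbx5, Cdx2 and Fgf8. Of 5 NSL complex subunits 1 had a member, which was 1700081L11Rik itself, and none of 3 MSL complex subunits, 10 genes of chromatin architecture and 20 genes of RNA polymerase III had one. The highest ratio among the named developmental regulators was at -17546 bases from the TSS of Six3, a homeobox gene of forebrain and eye, with 67 Nsl1 reads (5.56 times, 4.31 to 7.06) and 12 Msl1 reads (1.16 times). Tbx5, a heart and limb regulator, had 52 Nsl1 reads (4.55 times, 3.40 to 5.96) and 11 Msl1 reads (1.55 times) 113943 bases after its TSS. The tile assigned to Tbx3, a T-box factor, had 48 Nsl1 reads (3.89 times, 2.87 to 5.16) but lay at -262345 bases from it, and nearer to a 5S RNA gene.

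Others were close to the limit. Zfp42, a marker of pluripotent cells also called Rex1, had 34 Nsl1 reads (3.42 times, 2.37 to 4.78) and 5 Msl1 reads (0.561 times) 16591 bases after its TSS. Cdx2, a trophectoderm regulator, had 39 Nsl1 reads (3.26 times, 2.32 to 4.46) and 20 Msl1 reads (1.72 times). Fgf8, a secreted growth factor gene, had 38 Nsl1 reads (3.05 times, 2.16 to 4.18) and 16 Msl1 reads (1.17 times). At these 3 tiles the counting interval reached below 3, as it did at most members.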

How the data were processed

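The files were BED lists of aligned reads, 1 line per read, made by the authors, who called bases with the Illumina pipeline (CASAVA 1.8.2) and aligned reads to mm9 with Bowtie 0.12.7, keeping unique reads for their analyses. The score column deposited by the authors was 255 in every line and was not used. Reads were 50 bases (Msl1) or 36 bases (Nsl1) long. The Msl1 library was made with NEXTFlex and the Nsl1 library with NEBNext, so protocol and antibody cannot be told apart. From 23888517 (Msl1) and 26084098 (Nsl1) reads, 1 read per position and strand was kept, which left 81.68% and 95.44% of nuclear reads, and 5' ends were moved downstream by 105 or 67 bases. Tiles, TSSs (GENCODE vM1) and motifs were handled on NCBIM37 (mm9), whose chromosome lengths hold every read. RefSeq promoter sequences came from the GRCm38.p6 table. With 1 library per antibody no test was made. Counting intervals are exact Poisson or Clopper-Pearson, and those of medians come from order statistics. Python 3.11.15, numpy 2.4.6, pandas 2.3.3, scipy 1.17.1 and matplotlib 3.10.9 were used, and the tile and motif steps were tested on simulated data.

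Members, motifs and gene lists were chosen with earlier results of these data known. The named sites are the 12 highest ratios, the 3 with most reads, the 3 on each side of the limit, the highest with CTCF, a box pair or a CpG island stretch or in exons, and the highest at each listed gene. E box and Ets words, tandem repeats, the check of the gene of Nsl1 and sites with RefSeq starts were chosen after seeing the data. The alternatives tried were other limits, tiles, levels, read shifts and repeated reads. Some items under these rules are not reported here.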

Additional observations from a re-analysis of the deposited data

How the results depend on the processing

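E box and Ets shares at the summits stayed within their main intervals under every setting run. Of 124 values under 13 alternative settings, 112 kept within the main interval or within 1.5 times the main count, and 12 moved. Most settings kept largely the same tiles, such as 648 of 703 with reads of both libraries moved by 100 bases. Small changes are thus partly built in. Requiring Nsl1 at 4 or more times left 224 tiles and gave a median Nsl1 ratio of 4.76, a median GC content of 48.25%, the CTCF consensus at 2.23% and 12.5% with Nsl1 at the nearest TSS. With 40 or more reads, 454 tiles had a median ratio of 3.82. With all reads kept, the median Msl1 ratio was 1.21 and the GC content 48.3%; with Msl1 under 1.5 times, the Msl1 ratio was 1.06. In 200 bases at the summit, CTCF was at 2.02% and the GC content was 53.2%. Levels from 10 to 100 kb kept 598 of the 692 tiles. Removing the 3 tiles of the gene of Nsl1, a setting added after seeing the data, moved no value, and so few of 692 tiles could hardly move one. Counting the level only over flanks with reads, also added after seeing the data, left 624 tiles against 692. This count is within 1.5 times the main count, and the shares and the GC content stayed within their main intervals. The setting shows which tiles pass the rule. The ratios of the sites named above, Dock2 among them, were not recounted under it. The median repeat-masked share was not run, since the reference used is not masked. No paired analysis was possible because each antibody has 1 library. The depth, a median of 44 reads, limits the precision of single tiles.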
